A study of Mus musculus with 28 samples.

Results

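The 35 genes described here are markers of white blood cells: 3 found in nearly all leukocytes, 5 shared by myeloid cells, 11 of macrophages and monocytes, 6 of neutrophils and 10 of lymphocytes. They were chosen by name, for what they are known to mark, but with earlier results of these data known. They were followed through RNA libraries of mouse lung cells from which cells carrying CD45 had been removed. Of the 35 names, 34 matched one of the 23478 gene rows in each count table; Adgre1 stands there under its older name Emr1, and Ly6g was not analysed here. The values say how much RNA of these markers each of the 19 RNA libraries still held. Csf1r, Cd68 and Cd79b varied less between libraries than the others, so sums over all members lean on them where the others are low. Across the set, 1 control library of the Yap deleted line held the highest level of every one of the 34 genes, and a second control of that line was next for 25 of them.

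The study altered Yap, the effector of the Hippo pathway, in alveolar type 2 (AT2) cells, the surfactant-making epithelial cells of the lung. In the line called Yap active, the mice carried Stk3flox/flox/Stk4flox/flox, floxed genes of the Hippo kinases that restrain Yap, with SftpcCreert2 (6 RNA libraries) or without that Cre (4 controls). In the line called Yap deleted they carried Yapflox/flox with SftpcCreert2 (5 libraries) or without it (4 controls). SftpcCreert2 is an inducible Cre driven by the promoter of a surfactant gene, so recombination is aimed at AT2 cells and not at leukocytes. Recombination was induced at postnatal day 3 and lungs were collected at postnatal day 14. Magnetic beads took out cells with CD31, CD271, CD90.2, Ter119, CD16/32 or CD45 on them, and cells bearing CD326, the product of Epcam, were then kept. Controls went through the same removal and selection. Nothing in the labels ties a library to a separate animal, and p-values therefore measure the spread between these samples, which may be technical.

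Leukocytes carry CD45, the phosphatase encoded by Ptprc, on their surface, which is why beads against it are used to strip them from an epithelial sample. Young lung holds resident macrophages, monocytes and neutrophils passing through its vessels, and lymphocytes, and each kind is told by its own receptors, granule proteins and antigen-receptor parts. The transcription factor PU.1, encoded by Spi1, drives myeloid genes by binding short purine-rich stretches in their promoters. Because the RNA is bulk RNA, fewer cells of a kind and less RNA per cell cannot be told apart.

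Promoter stretches of 3 members are shown because one or both of 2 other readouts touch them, a purine-rich word of the PU.1 type and a peak call from open-chromatin reads. They come from RefSeq on build GRCm38.p6, run 5′ to 3′ along the gene's own strand and end 50 bases after an annotated start. For C1qc and Ptprc the start used lies inside the listed span of the gene. S100a8 (chr3:90668821-90669120, plus strand) encodes a neutrophil granule protein, and its capitals mark the word GAGGAAGT as it reads from the other strand.
S100a8: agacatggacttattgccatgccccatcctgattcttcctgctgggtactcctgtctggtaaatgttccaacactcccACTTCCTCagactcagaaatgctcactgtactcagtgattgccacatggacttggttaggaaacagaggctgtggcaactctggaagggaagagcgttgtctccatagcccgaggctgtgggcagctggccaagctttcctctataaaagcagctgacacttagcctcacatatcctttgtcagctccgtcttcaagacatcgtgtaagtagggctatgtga
C1qc (chr4:136892865-136893164, minus strand) encodes a chain of complement C1q made by macrophages, and its capitals mark the same word, again read from the other strand.
C1qc: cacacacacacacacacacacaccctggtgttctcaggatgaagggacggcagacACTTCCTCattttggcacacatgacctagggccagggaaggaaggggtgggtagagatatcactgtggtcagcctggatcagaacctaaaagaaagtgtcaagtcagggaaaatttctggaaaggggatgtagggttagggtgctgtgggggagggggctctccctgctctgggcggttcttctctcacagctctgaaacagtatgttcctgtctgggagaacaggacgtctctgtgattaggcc
Ptprc (chr1:138175256-138175555, minus strand) is the CD45 gene, and its capitals mark the bases covered by a peak in one of the authors' control lists. That peak had a −log10 q of 0 by the authors' values, so it does not show that the stretch was open.
Ptprc: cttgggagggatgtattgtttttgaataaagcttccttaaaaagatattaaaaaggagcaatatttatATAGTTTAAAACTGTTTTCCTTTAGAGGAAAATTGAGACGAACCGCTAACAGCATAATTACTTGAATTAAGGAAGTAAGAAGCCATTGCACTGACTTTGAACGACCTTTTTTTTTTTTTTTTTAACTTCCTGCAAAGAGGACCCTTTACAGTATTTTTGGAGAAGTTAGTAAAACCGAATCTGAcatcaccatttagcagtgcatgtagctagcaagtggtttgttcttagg
The word GAGGAAGT, searched on both strands, lay in 2 of the 26 members with a promoter entry (7.69%) and in 997 of 27025 genes (3.69%). A match of letters is not a binding site, and the other members' windows lacking it says nothing of the factor.

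Depth ran from 34.98 to 43.5 M counts per library in the Yap active line and from 31.9 to 42.9 M in the other. Levels are given as CPM, counts per M of the library size scaled by TMM over all 19 libraries. Of values from 1 to 8 counts, 77.7% were even, so a fragment seems to have been counted at both ends, and counting intervals below use counts divided by 2. In 3 libraries Esr1, a relative of the receptor part of the inducible Cre and at 213 CPM or more in the other Cre libraries, went against the label: the library labelled active 1 held 2.03 CPM, the one labelled active control 2 held 165 CPM and the one labelled deleted control 2 held 82.4 CPM. In the Yap active table, columns of active libraries 2 to 6 and control 4 come before those of controls 1 to 3 and active 1, with no reason given in the header. In the Yap deleted table, columns of deleted controls 1 and 2 come last, after controls 3 and 4 and all Cre libraries, again with no reason given. No Cre library of that line stands with them, so table position could not be separated from this pair. Of the defining epithelial genes, Epcam lay between 89.5 and 259 CPM, lowest in the libraries labelled deleted control 2 (89.5) and control 1 (107). Sftpc, the AT2 surfactant gene, was present in all (2014 to 83234 CPM).

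Ptprc, the gene of the antigen used for depletion, was read in every library, over a 413-fold range. In the Yap deleted line the controls held 55.2, 179, 3.76 and 19.4 CPM, and the Yap deleted libraries 1.15, 7.59, 1.55, 12.5 and 9.85 CPM. Controls 1 and 2 stood above all other libraries, control 4 just above the highest Yap deleted library, and control 3 within the Yap deleted range. Controls of the Yap active line held 4.43, 1.92, 10.8 and 0.468 CPM, and the Yap active libraries 14.4, 2.08, 2.19, 0.434, 0.828 and 0.769 CPM. There the groups overlapped from end to end, with the library labelled active 1 highest and active 4 lowest. Laptm5, a lysosomal membrane protein of blood cells, followed with 284 CPM in deleted control 2 and 2.01 CPM in active control 4, a 141-fold range. Coro1a, an actin-binding protein of leukocytes, spanned 0.579 to 181 CPM, or 313-fold. RNA of these leukocyte genes was thus read in each library after depletion.

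**Figure D1:**
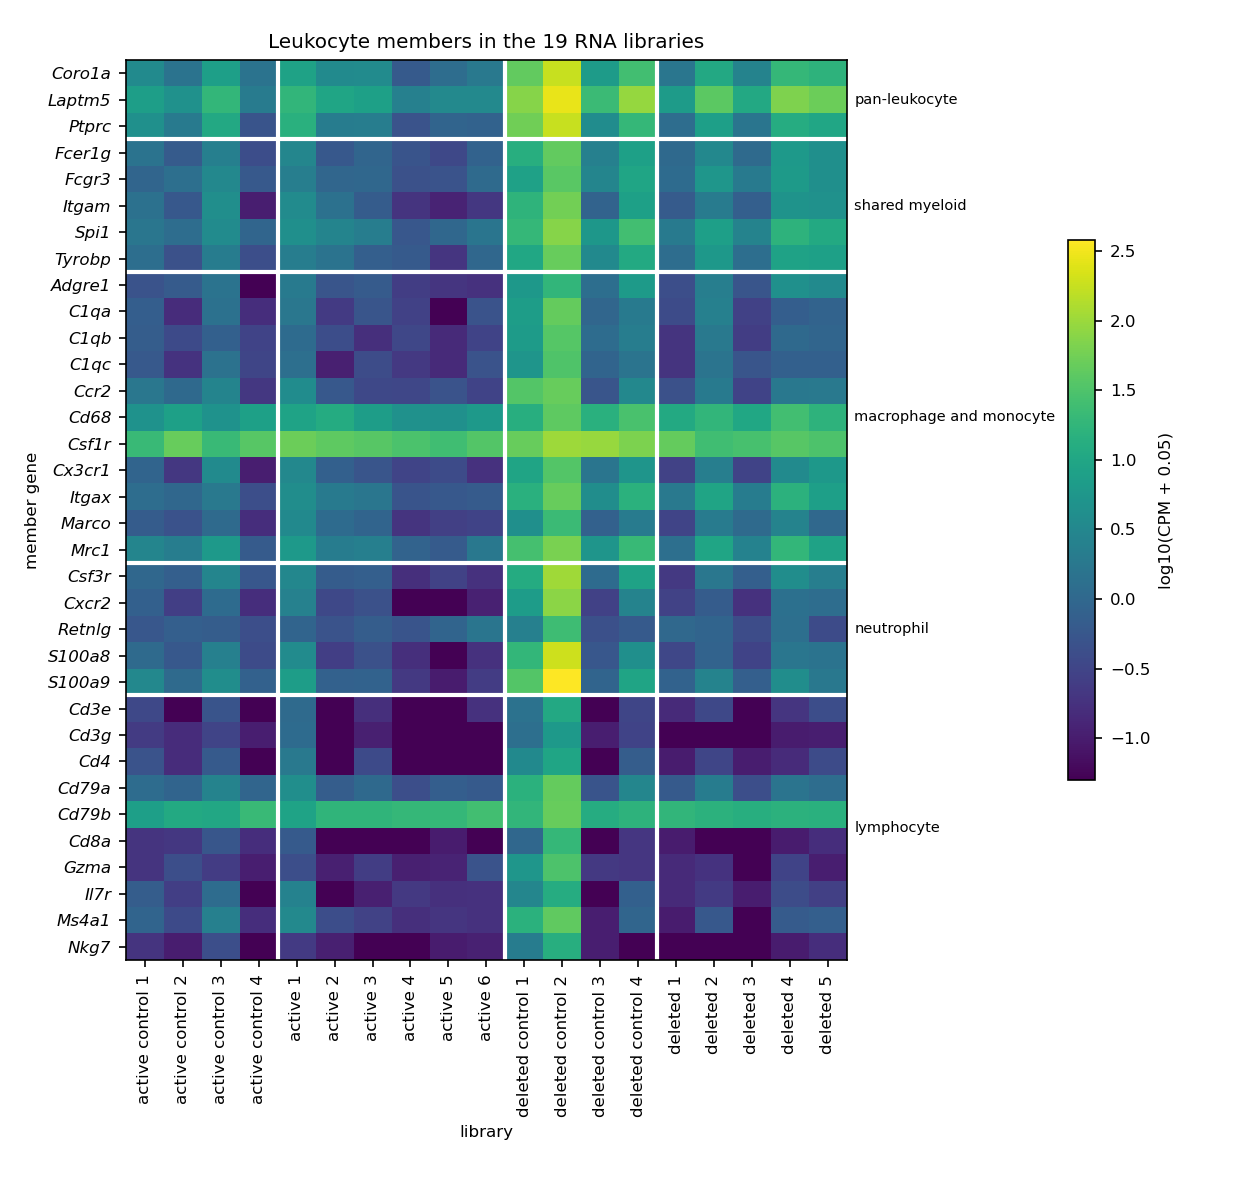
Level of each of the 34 members (rows, by class) in the 19 RNA libraries (columns, by group), as colour on a log10(CPM + 0.05) scale. The column of deleted control 2 is the brightest in every row, deleted control 1 is next in 25 rows, and the rows of Csf1r, Cd68 and Cd79b are bright in every library.

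The shared myeloid members were also highest in deleted control 2, with deleted controls 1 and 4 next in either order. Spi1 held 74.2 CPM in deleted control 2, 19.5 in control 1, 25.0 in control 4 and 5.64 in control 3, against 1.92 to 15.8 CPM in Yap deleted libraries. Tyrobp and Fcer1g, the signalling adaptors of activating receptors, were at 47.5 and 44.6 CPM in deleted control 2 and at 10.2 and 13.7 CPM in control 1. In active libraries 4 and 5 Tyrobp was down to 0.579 and 0.146 CPM. Itgam, the CD11b integrin chain, ranged from 0.055 CPM in active control 4 to 56.8 CPM in deleted control 2. Fcgr3, a low-affinity antibody receptor and itself part of the CD16/32 antigen pair removed with the beads, was between 0.405 and 38.9 CPM. Its partner in that pair, Fcgr2b, which is not a member, spanned 0.116 to 18.9 CPM and was also highest in deleted control 2.

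Among macrophage and monocyte members, 2 behaved unlike the rest. Csf1r, the receptor for the macrophage growth factor CSF1, held 21.1, 47.1, 21.0 and 37.3 CPM in active controls and 50.3, 41.4, 36.7, 30.4, 24.5 and 34.7 CPM in Yap active libraries. In the other line it held 47.9, 102.5, 95.9 and 65.2 CPM in controls and 45.4, 24.9, 28.5, 36.8 and 31.5 CPM in Yap deleted libraries. Its range was 4.87-fold, and it lay at 24.5 to 37.3 CPM in the 4 libraries where Ptprc was under 1 CPM. Cd68, a lysosomal glycoprotein abundant in macrophages, spanned 4.38 to 40.8 CPM, or 9.30-fold. The remaining 9 members of the class varied with Ptprc over wider ranges. Itgax, the CD11c integrin chain carried by alveolar macrophages and dendritic cells, held 0.385 CPM in active control 4 and 46.9 CPM in deleted control 2. Mrc1, the mannose receptor, spanned 0.605 to 62.9 CPM, and Marco, a scavenger receptor of alveolar macrophages, 0.110 to 22.4 CPM.

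Tissue macrophages make the complement chains of C1qa, C1qb and C1qc, whose levels were 45.6, 35.9 and 32.3 CPM in deleted control 2 and 7.29, 6.64 and 5.31 CPM in control 1. Elsewhere C1qa did not pass 2.41 CPM (deleted 2), C1qb 2.14 CPM (deleted control 4) or C1qc 1.52 CPM (deleted 2). Ccr2, the chemokine receptor of inflammatory monocytes, was at 34.2 CPM in deleted control 1 and 48.3 CPM in control 2, then at no more than 3.87 CPM (active 1) in any other library. Cx3cr1, the fractalkine receptor of patrolling monocytes, reached 9.24 and 34.5 CPM in the same pair of libraries and 5.84 CPM in deleted 5. Adgre1, the F4/80 antigen, went from 0 counts in active control 4 to 18.2 CPM in deleted control 2. Deleted control 4 and deleted 4 differed from those controls in which macrophage genes they held: Itgax stood at 14.9 and 15.3 CPM there, close to the 14.4 CPM of deleted control 1, while Ccr2 was at 3.22 and 1.73 CPM.

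Neutrophil members were far highest in deleted control 2. S100a8 held 191 CPM in deleted control 2, 18.2 in control 1, 0.513 in control 3 and 4.24 in control 4, and 0.289, 0.819, 0.254, 1.63 and 1.44 CPM in Yap deleted libraries. Its partner S100a9 held 380 CPM in deleted control 2 and 34.3 CPM in control 1, with 0.049 CPM at the low end (active 5). Csf3r, the receptor for the neutrophil growth factor G-CSF, spanned 0.116 to 107 CPM, and Cxcr2, the receptor for neutrophil-attracting chemokines, 0 counts (active 4 and 5) to 79.1 CPM. Retnlg, a secreted protein of neutrophils, was at 23.7 CPM in deleted control 2 and at 0.339 to 2.39 CPM everywhere else. Summed, the 5 neutrophil genes took 32.3% of the summed CPM of all members in deleted control 2, 13.3% in control 1 and 1.36% to 9.42% in the other 17 libraries. Summed CPM is not corrected for gene length, so these shares compare libraries with each other and not one class with another.

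Lymphocyte members were scarce outside 4 libraries, with 1 exception. The exception was Cd79b, the beta chain of the B cell receptor complex, at 7.79, 11.3, 10.6 and 21.3 CPM in active controls and 8.72, 17.0, 17.0, 19.04, 19.2 and 25.6 CPM in Yap active libraries. In the Yap deleted line it held 18.0, 47.5, 12.4 and 16.0 CPM in controls and 17.7, 15.4, 13.6, 15.7 and 14.4 CPM in Yap deleted libraries, a range of 6.10-fold over all. Its partner chain Cd79a held 45.6 CPM in deleted control 2 and 14.9 CPM in control 1 but 0.376 to 4.09 CPM in the others, and in active 6, the second highest library for Cd79b, it was at 0.577 CPM. Ms4a1, the B cell antigen CD20, held 43.4 and 14.97 CPM in deleted controls 2 and 1, 3.33 CPM in active 1, 2.43 CPM in active control 3 and under 1 CPM in all others, with 0 counts in deleted 3. The T cell genes Cd3e, Cd3g and Cd4 were at 11.1, 6.18 and 9.59 CPM in deleted control 2 and at 1.41, 1.25 and 3.44 CPM in control 1. Only active 1 also held all of these T cell genes above 1 CPM (1.05, 1.10 and 1.81 CPM).

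Cd8a, the co-receptor of cytotoxic T cells, held 19.4 CPM in deleted control 2 and no more than 0.937 CPM elsewhere. Il7r, the interleukin-7 receptor of T cells and innate lymphocytes, held 12.5 CPM there, 2.94 in deleted control 1 and 2.62 in active 1. Gzma and Nkg7, a granzyme and a granule protein of cytotoxic cells, held 31.6 and 13.7 CPM in deleted control 2 and 5.44 and 2.08 CPM in control 1. No other library held as much as 0.5 CPM of either gene. Cd3e, Cd3g, Cd4, Cd8a, Il7r, Gzma and Nkg7 were therefore at or near the limit of counting in most libraries. Differences among those libraries rest on few counts and were not tested library against library.

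**Figure D2:**
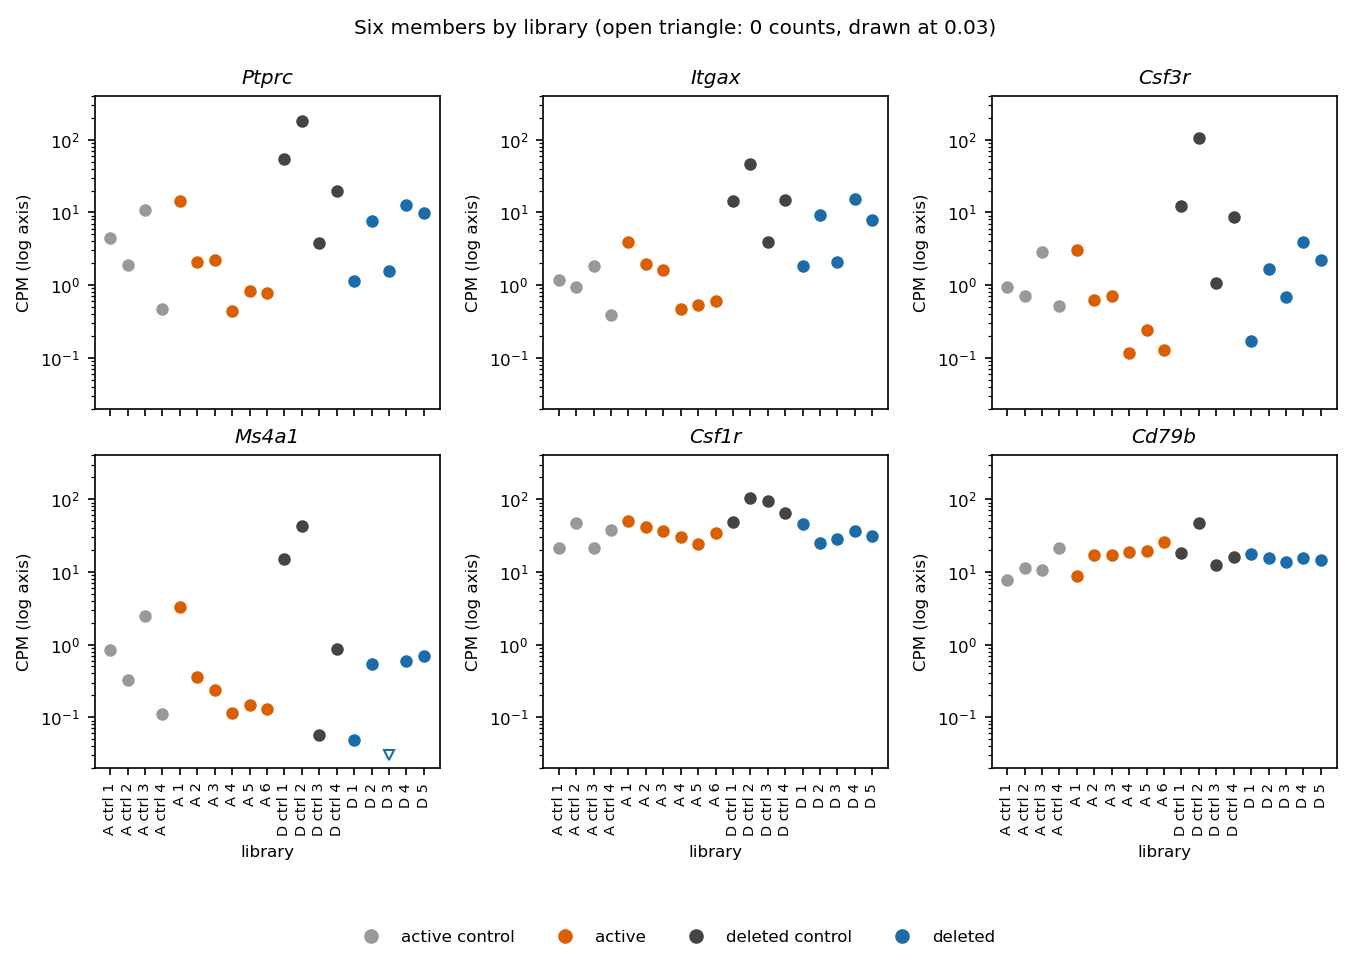
CPM (log axis) of 6 members in each of the 19 libraries, A for the Yap active line, D for the Yap deleted line and ctrl for controls. Ptprc, Itgax, Csf3r and Ms4a1 peak in deleted control 2, while Csf1r stays between 21.0 and 102.5 CPM and Cd79b between 7.79 and 47.5 CPM.

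Library by library, the number of the 34 members at 1 CPM or more separates them further. Deleted control 2 held all 34 and deleted control 1 held 33, missing only Cd8a. Active 1 followed with 30, then active control 3 with 26 and deleted control 4 with 25. Yap deleted libraries held 12, 23, 13, 24 and 21 in their order, and deleted control 3 held 16. Active controls 1, 2 and 4 held 16, 11 and 5, and active libraries 2 to 6 held 12, 10, 4, 5 and 9. In the leanest, active 4, the genes at 1 CPM or more were Laptm5, Csf1r, Cd68 and Cd79b. The summed CPM of the members ordered the libraries partly otherwise: active 1 (182 CPM) and active control 3 (128 CPM) stood below deleted controls 3 and 4 and deleted libraries 2, 4 and 5. It ran from 59.9 CPM in active 5 and 63.9 in active 4 to 399 in deleted control 4, 558 in control 1 and 2417 in control 2. With unscaled library totals the extremes were 56.5 and 2792 CPM. In active 4 most of the sum was Csf1r, Cd68 and Cd79b, so the order by sum is not an order by leukocyte RNA alone.

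The mixture of members differed as well as the amount. Counts of a member per 100 counts of Ptprc in the same library describe that mixture without regard to epithelial RNA, and intervals are exact 95% binomial ones that cover counting error only. For Itgax the ratio was 26.1 (22.8 to 29.9) in deleted control 1 and 26.2 (24.3 to 28.2) in control 2, but 105 (73.5 to 149) in control 3 and 76.4 (64.3 to 90.7) in control 4. All 5 Yap deleted libraries lay high, from 79.1 (62.6 to 99.1) in deleted 5 to 158 (92.5 to 276) in deleted 1. In the Yap active line, active 1 (27.0, interval 21.1 to 34.3), control 1 (26.2, 16.1 to 40.8) and control 3 (16.9, 11.6 to 23.8) lay low. The other active libraries lay at 64.7 to 107 and control 4 at 82.4, with wide intervals from few counts. Active control 2 was between, at 49.3 (26.7 to 90.4).

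Ms4a1 did not simply mirror Itgax. Per 100 Ptprc counts it was 27.1 (23.8 to 31.0) in deleted control 1 and 24.2 (22.4 to 26.2) in control 2, against 1.52 (0.0378 to 8.74) in control 3 and 4.46 (2.41 to 7.59) in control 4. In Yap deleted libraries 2, 4 and 5 it was 7.19 (3.64 to 12.9), 4.79 (2.44 to 8.50) and 7.16 (3.88 to 13.04). Deleted 1 (4.17, interval 0.101 to 25.6) and deleted 3 (0 counts, upper limit 12.6) rest on few counts. Deleted controls 3 and 4 thus stood with the Yap deleted libraries and apart from controls 1 and 2 by intervals that do not meet. All 10 libraries of the Yap active line had a ratio of 10.8 to 26.7. There the libraries high in Itgax, such as active 2 (17.1, interval 5.89 to 41.2), could not be told by these intervals from those low in it, such as active 1 (23.1, 17.9 to 30.0).

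Csf3r per 100 Ptprc counts set deleted control 2 apart from control 1, at 60.0 (56.7 to 63.4) against 22.3 (19.3 to 25.7). Deleted control 4 was also above control 1 for Csf3r, at 44.7 (36.5 to 54.9), but the other neutrophil ratios computed went the other way. S100a8 was at 21.8 (16.7 to 28.6) in control 4 and 32.9 (29.1 to 37.2) in control 1. S100a9 was at 47.5 (38.8 to 57.9) and 62.2 (56.3 to 68.6) in the same libraries. For Csf3r again, active control 4 was the highest of the Yap active line, at 112 (40.6 to 309) from few counts. The rest of that line ran from 16.7 in active 6 to 36.6 in active control 2. Active 1 and active control 3 were at 21.3 (16.3 to 27.9) and 26.4 (19.6 to 35.4) for Csf3r, near deleted control 1. Laptm5 per 100 Ptprc counts was 123 in active 1, 171 and 172 in active controls 1 and 3, and 137 and 159 in deleted controls 1 and 2. It was 478 to 702 in the other libraries of the Yap deleted line. Chil3, a secreted chitinase-like protein abundant in alveolar macrophages and no member, was at 120 and 105 per 100 Ptprc counts in deleted controls 1 and 2 and at 678 to 1407 in the rest of that line.

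**Figure D3:**
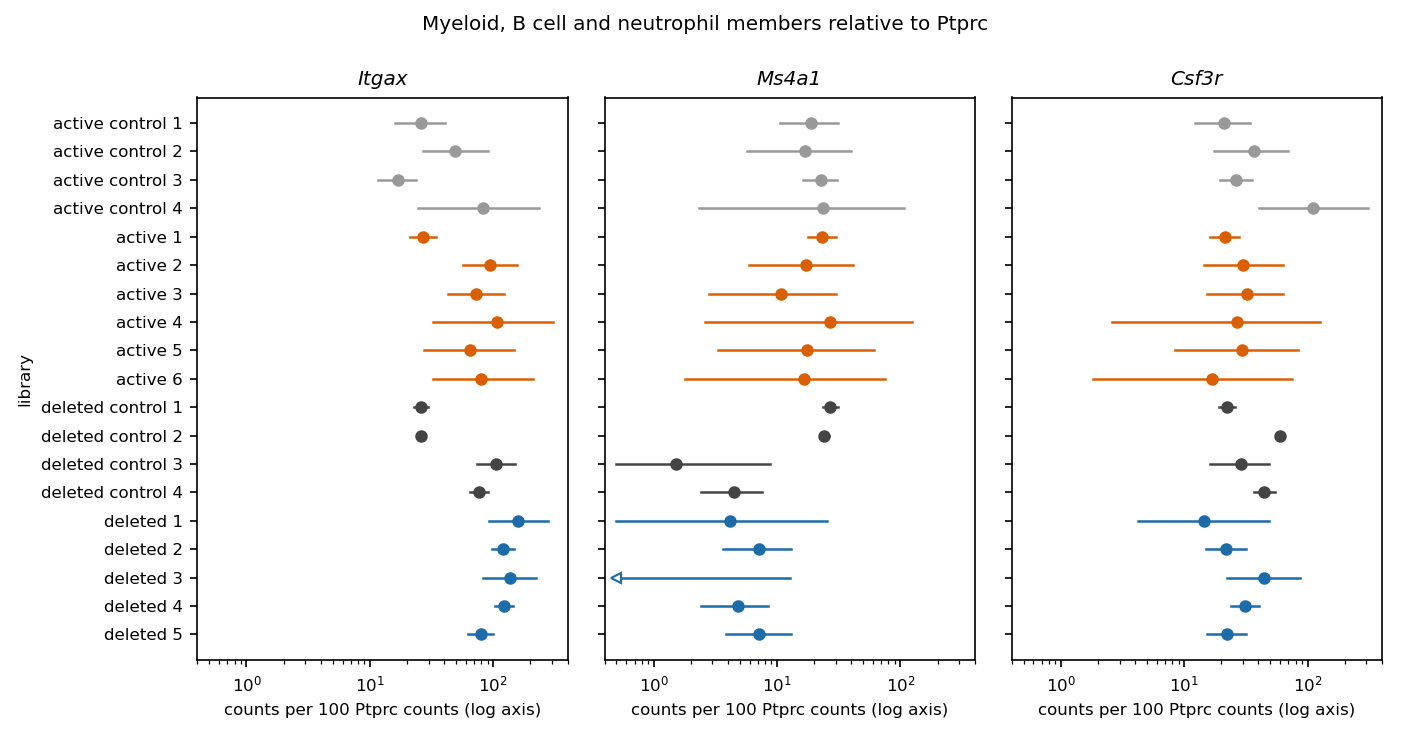
Counts of Itgax, Ms4a1 and Csf3r per 100 counts of Ptprc (log axis) in each library, with exact 95% binomial intervals as bars; the open triangle is a count of 0. Deleted controls 1 and 2 share a low Itgax and a high Ms4a1 ratio, and deleted control 2 alone of these has a Csf3r ratio of 60.0.

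Markers of some other cells moved with these libraries. Deleted controls 1 and 2 held 308 and 232 CPM of Pecam1, the CD31 antigen of endothelium and another target of the beads, against 5.56 and 12.6 CPM in controls 3 and 4, and 2.10 to 10.8 CPM in Yap deleted libraries. Within the Yap active line it was highest in active control 3 (43.1 CPM), control 1 (20.5) and active 1 (15.1) and 0.798 to 4.80 CPM in the others. Over 15 endothelial genes, all found, the summed level was 3102 and 2480 CPM in deleted controls 1 and 2 and 171 to 536 CPM in the other 17 libraries. Thy1, the CD90 antigen, was likewise highest there (16.8 and 42.4 CPM, elsewhere 0.228 to 8.88), and Ngfr, the CD271 antigen, was low throughout, at most 1.54 CPM in deleted control 2 and 1.52 CPM in active 1. In 14 fibroblast and pericyte genes, all found, the sum was 3557 to 23340 CPM, with deleted control 2 (21641) and control 1 (18733) next below active 1. Active control 3 (16952) and deleted 3 (16144) followed. Eln alone gave 16540 CPM in active 1, 13840 in deleted control 2 and 12114 in deleted control 1, so this sum leans on that gene. The red cell genes Alas2 and Slc4a1 did not pass 1.28 CPM in any library. Epb42, also on the red cell list, was at 1.80, 1.98, 1.78 and 1.86 CPM in deleted 1, 3, 4 and 5. It was at 0.773 CPM in deleted 2 and at most 0.912 CPM in the controls of that line. The 6 globin genes were listed at 0 in all, which cannot show whether their RNA was absent or its reads were not counted. The part of these other cells in the results for leukocyte genes was not tested.

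No member passed the test between Yap active libraries and their controls. Of 15685 genes tested by edgeR's quasi-likelihood test, none was called at a Benjamini-Hochberg adjusted p under 0.05 (0.0%), with 1981 at an unadjusted p under 0.05. Of the 28 members that passed the filter on low counts, 0 were called and 0 had an unadjusted p under 0.05. They were lower in 19 cases and higher in 9, with a median log2 fold change of −0.13 beside −0.01 over all genes. Cd3e, Cd3g, Cd8a, Nkg7, Gzma and Il7r had too few counts to test. Ptprc had a log2 fold change of −0.33 ± 1.02 (SE), Tyrobp −0.03 ± 0.68 and Csf1r 0.21 ± 0.27. Marco had 0.85 ± 0.90, C1qb −0.36 ± 0.65 and Ccr2 −0.53 ± 0.90.

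The neutrophil genes S100a8, Csf3r and Retnlg had log2 fold changes of −0.50 ± 1.16, −0.59 ± 0.88 and 0.51 ± 0.40 (SE), and the B cell gene Cd79a −0.13 ± 0.67. Adjusted p lay between 0.412 and 0.984 over the members tested. Without active 1 and active control 2, the pair whose Esr1 goes against the label, the median of the members was −1.21 and Marco turned to −0.21, with 0 members called. With the position in the deposited table as a covariate, an alternative chosen after the data were seen, 27 of 28 members were higher, Ptprc by 1.37 ± 0.69, and again 0 were called. Within the columns that come first, Ptprc was 0.434 to 2.19 CPM in 5 active libraries and 0.468 CPM in the 1 control; in the later columns it was 14.4 CPM in the 1 active library and 1.92 to 10.8 CPM in 3 controls. DESeq2 called 18 genes (0.115%) and 0 members. limma-voom with sample weights, which gives libraries that stand apart less say, called 4373 genes lower (27.9% of those tested) and 4472 higher (28.5%). Of the 28 members it called 13 lower and 1, Cd79b, higher.

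In the Yap deleted line every member tested was lower in Yap deleted libraries than in controls on the fitted scale, but none passed the test. edgeR called 1 of 15818 genes (0.00632%) and 0 of the 30 members tested; 2422 genes and 23 members had an unadjusted p under 0.05. The median log2 fold change of these members was −3.14, beside 0.01 over all genes. A member that passes a filter on low counts only through the libraries where it is high must differ, so this median is a description of the members tested and not of the set. By class the median was −2.71 for pan-leukocyte members, −2.01 for shared myeloid, −2.43 for macrophage and monocyte, −5.05 for neutrophil and −4.30 for lymphocyte members. Cd3g, Cd8a, Nkg7 and Gzma were not tested for want of counts.

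Ptprc had a log2 fold change of −3.34 ± 1.08 (SE; edgeR adjusted p = 0.255) and Tyrobp −1.91 ± 0.85. S100a8 had −5.97 ± 1.53, Csf3r −4.28 ± 1.26 and Retnlg −3.21 ± 1.15. C1qb had −3.86 ± 1.12, Ccr2 −4.19 ± 1.19 and Marco −2.43 ± 0.97. Cd3e had −4.17 ± 1.497 and Cd79a −3.84 ± 1.11. Adjusted p over the members tested lay between 0.247 and 0.475. DESeq2 called 611 genes lower (3.86%) and 18 members lower, among them all 5 neutrophil genes, and limma-voom with sample weights called 0 genes.

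The fitted differences were smaller without deleted controls 1 and 2. Then the median of the members tested was −0.72, no member was called, and Ptprc was at −0.87 ± 0.97. Of the 30 members 26 were then lower and 4 higher, the latter being Marco (0.01), Retnlg (0.58), Cd3e (0.36) and Cd79b (0.09). Leaving out deleted control 2 alone brought the median to −1.52.

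**Figure D4:**
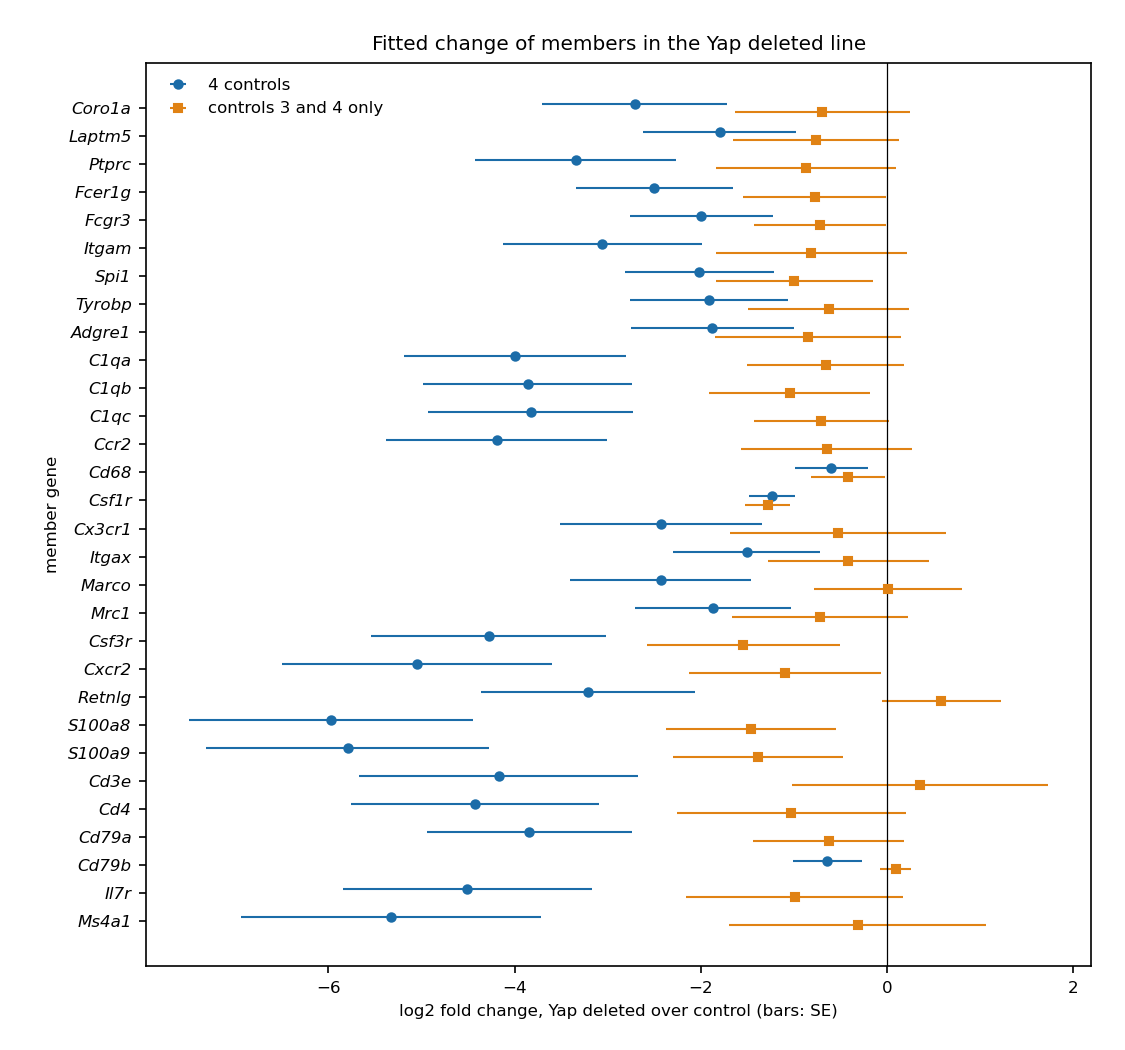
Fitted log2 fold change (Yap deleted over control, horizontal axis, bars are SE) of the 30 members tested, with all 4 controls (circles) and with controls 3 and 4 only (squares). Circles lie below 0 throughout; without controls 1 and 2 the median moves from −3.14 to −0.72, while Csf1r stays near −1.24.

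Csf1r was the exception among the members. Its log2 fold change was −1.24 ± 0.25 (SE; edgeR adjusted p = 0.247) with all controls and −1.28 ± 0.24 (adjusted p = 0.371) without controls 1 and 2. Over leaving out each library in turn it ranged from −1.41 to −1.06. It was also the 1 member tested for which every Yap deleted library (24.9 to 45.4 CPM) lay below every control (47.9 to 102.5 CPM), a pattern seen in 190 of 15818 genes (1.2%). By DESeq2 it was called, with an adjusted p of 0.00119, but so were others: 18 of 30 members were called lower, beside 3.86% of all genes. Across the controls Csf1r did not track Ptprc: deleted control 3 held 95.9 CPM of Csf1r and 3.76 CPM of Ptprc.

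Whether the change in members differed between the lines was tested as a difference of the fitted log2 fold changes, Yap active minus Yap deleted, in one edgeR model over 19 libraries. No gene of 16308 was called (0.0%; 1055 at an unadjusted p under 0.05), and none of the 33 members tested. All 33 differences were above 0, beside 8524 of the 16308 genes. Of the 33, 20 had an unadjusted p under 0.05, and their median was 3.29 beside 0.02 over all genes. Gzma, Cd3g and Cd8a were tested in neither line alone. They are highest in deleted controls 1 and 2, libraries that also count toward the filter on low counts. These numbers thus describe the members tested and not the set. The smallest p-values of members were those of Gzma (6.54 ± 1.77) and Csf1r (1.45 ± 0.39), both with an edgeR adjusted p of 0.696. Gzma reached 5.44 and 31.6 CPM in deleted controls 1 and 2 and under 0.5 CPM in every other library. DESeq2 called 12 genes higher (0.0736%), of which 1 was a member, Gzma (adjusted p = 0.0369). Without deleted controls 1 and 2 the median difference was 0.54; Gzma was at 0.67 ± 1.28 and Csf1r at 1.47 ± 0.40.

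Other genes of the same cell kinds, from lists drawn up by cell type with earlier results of these data known, were mostly lower in the Yap deleted line too. All 20 further pan-leukocyte genes were tested and all were lower, with a median log2 fold change of −2.41 and 0 called. Over all genes tested, 7748 of 15818 were lower. Of 16 further neutrophil genes tested (18 listed) 15 were lower (median −3.49). Of 11 B cell genes tested (14 listed) 10 were lower (median −3.49), and of 10 T cell genes (17 listed) 9 (median −2.38). A gene that passes the filter on low counts only through the libraries where it is high must differ. These counts and medians thus describe the genes tested and not the lists. Further alveolar macrophage genes had a median of −1.43, with 12 of 15 lower, and further monocyte and interstitial macrophage genes −1.13, with 11 of 14 lower. Endothelial genes, not leukocyte genes, were lower in 15 of 15 (median −3.96), and AT2 genes were higher in 11 of 12 (median 0.50). Without deleted controls 1 and 2 the medians were −0.59 for pan-leukocyte, −1.10 for neutrophil, −0.51 for B cell and −0.51 for endothelial genes. They were −0.44 for both T cell and alveolar macrophage genes and −0.02 for monocyte and interstitial macrophage genes, of which 6 of 14 were then higher. Lists of leukocyte genes overlap with epithelium in part: Lyz2, a lysozyme gene in the monocyte list, was at 3697 to 40632 CPM and is also made by AT2 cells. Lcp1, the highest gene of the pan-leukocyte list, was at 143 CPM or more in every library, and Hdc, the highest of the neutrophil list, at 83.5 CPM or more.

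In the Yap active line the further pan-leukocyte genes were lower in 14 of 20 (median −0.21) and neutrophil genes in 5 of 9 (median −0.10), with 0 called in either. Controls 1 to 4 of the Yap deleted line held 66.3, 188, 31.8 and 132 CPM of Chil3, and its Cre libraries 8.78, 63.6, 21.8, 141 and 74.0 CPM. The groups overlapped, and deleted 4 was second only to control 2. Chil3 in the Yap active line was between 0.434 and 29.6 CPM, the highest being active 1. Natural killer genes, 12 found, summed to 23.4 and 76.4 CPM in deleted controls 1 and 2 and to no more than 2.82 CPM in any other library.

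Open chromatin was read in cells sorted in the same way, in 9 ATAC-seq libraries. The labels do not tie any of these to an RNA library. For them the authors deposited lists of regions that opened or closed and lists of peaks. Coordinates are on mm10, and the scores, folds and q-values are the authors' own. Among 1392 regions the authors' deposited table lists as closed in Yap active cells, 3 are annotated to members: 2 intergenic ones 21.3 and 23.0 kb from the start of C1qb (score 10.9 each) and 1 at the end of Fcgr3 (score 9.63). They name 2 of 34 members (5.88%), beside 4.98% of the 23478 gene rows. Among 6017 listed as opened, the authors' deposited table has 1 in the first intron of Fcer1g (chr1:171232628-171233426, score 26.75) and 1 intergenic region 14.7 kb from the start of Fcgr3 (score 25.3). That is again 5.88% of the members, below the 19.3% of all gene rows named in that list. The 676 closed and 532 opened regions of the Yap deleted line name none of the members, beside 2.41% and 2.04% of all gene rows. At shares that low, their absence among 34 members says little. That line had 2 Yap deleted and 1 control ATAC-seq libraries.

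Peaks over the promoter windows of members were few. Of the 26 members with a window, the authors' control list R1 of the Yap active line had a peak at 7 (26.9%), namely Cxcr2, Ptprc, S100a8, Csf3r, Cd3g, Cd68 and Gzma, beside 6.35% of 27025 genes. Control list R2 had a peak at S100a8 alone (4.23% of all genes). The 2 lists of Yap active cells had 0 and 1 member, Cd68, beside 32.8% and 16.8% of all genes. By the authors' q-values none of the peaks at members stood out, with a −log10 q of 0 to 0.0434. List R1 of the controls is long, at 345109 peaks. The peak in the Ptprc window, shown in capitals in its sequence, had a fold of 2.31 over background and a −log10 q of 0. The sources used here do not name the libraries pooled for each list, so the lists give no spread between replicates.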

How the data were processed

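RNA was measured in 19 libraries and open chromatin in 9. The authors deposited counts of reads per gene in 2 tables of 23478 rows, 1 for each line; the counting program and annotation are not given in the sources used here. Trim Galore, Bowtie2, Cufflinks, DESeq, HOMER and build mm10 are named in the submitters' processing notes, without versions. Of the gene names, 27 appear as dates and 2 are repeated. Region lists carry a score whose scale is not stated, per the file headers. In the deposited peak lists, fold is a ratio over background and q is given as −log10, by the column order MACS uses.

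Counts were filtered by filterByExpr, scaled by TMM and tested two-sided in edgeR 4.0.16 (R 4.3.3; quasi-likelihood, robust), with Benjamini-Hochberg adjustment over all genes tested; genes under 0.05 were called. Each line was fitted on its own table. The SE is the fold change divided by the root of F. Alternatives were RLE scaling, no filter beyond 1 count, DESeq2 1.42.0, limma 3.58.1 (voom with sample weights), leaving out libraries, a replicate block and, chosen after the data were seen, table position. Libraries of a group differed beyond sampling noise (lowest chi-square per gene 53.1). The fits were tested on simulated data. Promoter windows run from 250 bases before to 50 after an annotated start, and peaks overlap them by 1 bp or more. Fitted values are printed for Ptprc, Tyrobp, Csf1r, Marco, C1qb, Ccr2, S100a8, Csf3r, Retnlg, Cd3e, Cd79a and Nkg7 where tested, and for the 2 members with the smallest p in the difference. The members and lists were chosen with earlier results of these data known.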

Additional observations from a re-analysis of the deposited data

Results flagged for a closer look

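Of 136 sets of values tested, one for each member in each group, 42 held 1 library far from the others of its group by Dixon's ratio (30.88%). Chance flags about 1 in 20 where values are normally distributed. CPM was used here without a log transform and spans wide ranges, so that rate need not hold for it. Members of one library are not independent, so the flags count libraries more than genes. In the library labelled active 1, 24 members stood above the other 5 Yap active libraries, at these levels in CPM: Ptprc (14.4), Fcer1g (2.93), Fcgr3 (2.24), Itgam (3.69), Adgre1 (1.95), C1qa (1.68), C1qb (1.1), C1qc (1.27), Ccr2 (3.87), Cx3cr1 (3.15), Marco (3.38), Mrc1 (6.26), Csf3r (3.06), Cxcr2 (2.46), S100a8 (3.62), S100a9 (7.18), Cd3e (1.05), Cd3g (1.1), Cd4 (1.81), Cd79a (4.09), Cd8a (0.581), Il7r (2.62), Ms4a1 (3.33) and Nkg7 (0.179). Its Esr1 went against the label, and it was 1 of the 4 libraries whose columns come late in that table.

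In deleted control 2, 14 members stood above the other 3 controls, at these levels in CPM: C1qa (45.6), C1qb (35.9), C1qc (32.3), Marco (22.4), Csf3r (107), Cxcr2 (79.1), Retnlg (23.7), S100a8 (191), S100a9 (380), Cd3e (11.1), Cd79b (47.5), Cd8a (19.4), Gzma (31.6) and Nkg7 (13.7). The other 4 values stood apart in single libraries. In active control 3 they were Cd79a (2.65) and Cd8a (0.501) CPM, in active 6 Retnlg (1.54) CPM and in deleted 2 C1qa (2.41) CPM. What set these libraries apart was not tested.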

How the results depend on the processing

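Under RLE scaling and no count filter the members called stayed at 0 in every comparison, and all of the named members kept their sign. The counts that moved did so with the test or with single libraries. In the Yap active line the genes called were 0 by edgeR, 18 by DESeq2, 8845 by limma-voom with sample weights, 13 without active 1 and active control 2, and 0 to 2 over leaving out each library in turn; limma-voom called 14 members. In the Yap deleted line they were 1 by edgeR, 792 by DESeq2, 0 by limma-voom and 0 to 4 over leaving out libraries; DESeq2 called 18 members. For the difference they were 0 by edgeR, 17 by DESeq2, 21 by limma-voom and 0 to 3 over leaving out libraries; DESeq2 called 1 member.

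The median of the members tested ranged from −0.995 to 0.57 in the Yap active line over leaving out single libraries, from −3.55 to −1.52 in the Yap deleted line and from 1.497 to 3.78 for the difference. Its low end in the Yap active line came without active 1. Under limma-voom it was −1.42 in the Yap active line.

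Several named members changed sign in the Yap active line. With table position as a covariate, values were 1.37 for Ptprc, 0.87 for Tyrobp, 0.47 for C1qb, 1.10 for Ccr2, 0.44 for S100a8, 0.31 for Csf3r and 0.50 for Cd79a. Marco was at −0.57 by limma-voom and −0.21 without active 1 and active control 2. Leaving out single libraries gave −1.78 to 0.62 for Ptprc, −0.42 to 0.57 for Tyrobp, −0.11 to 1.35 for Marco, −1.91 to 0.0062 for Ccr2, −2.62 to 0.23 for S100a8, −1.75 to 0.20 for Csf3r and −1.04 to 0.40 for Cd79a. The high ends, Marco aside, came without active control 3, and the low end of Marco without active 1. In the Yap deleted line Marco (0.0101), Retnlg (0.58) and Cd3e (0.36) changed sign without controls 1 and 2.

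Replicate numbers are shared between groups, but the labels do not say that they pair samples. Deviations of same-numbered libraries correlated at 0.59, −0.0046, 0.12 and 0.56 in the Yap active line and −0.24, 0.54, 0.090 and 0.43 in the Yap deleted line, so the numbers were not taken as pairs; 2 of 4 controls in each line correlated best with their own number. With the number as a replicate block, 0 genes were called in the Yap active line, 0 in the Yap deleted line and 0 for the difference, and Tyrobp turned to 0.45 and the median to 0.11 in the Yap active line. At this depth, members under about 1 CPM rest on few counts. The cause of these changes was not tested.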
